A study of Danio rerio with 16 samples.

Results

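Transcripts of 6 genes that act on RNA polymerase II after it has started were followed through a zebrafish (Danio rerio) study of foggy, the gene now named supt5h. The genes were supt5h itself, hexim1, ccnt2a, ell, ncbp2 and ssrp1a. They were taken as every probe set, a group of short probes that reads 1 transcript, whose only gene symbol in the platform annotation was one of these names. That gave 7 of 15502 probe sets, 1 for each gene and 2 for ssrp1a. The genes were chosen with earlier results of these data known, namely because each had differed between foggy and wild-type arrays in the 36 h arrays numbered 4 to 6. Their differences in those arrays are therefore a description. The contrasts between array sets, between stages and over all 36 h arrays draw on the same arrays, so their p-values are given as part of that description and lean towards a call.

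RNA was read on 16 1-colour Affymetrix arrays in 4 groups. Of embryos at 36 h, described as embryonic brain, 6 samples were labelled Foggy and 4 WT, the Foggy samples numbered 1 to 6 and the WT samples 1 and 4 to 6. Embryos of 12 somites had received an RNA called Foggy(DelCter) (3 samples) or a control RNA (3 samples) by injection. The label of each sample, at both stages, names brain and adrenal medulla. The labels give no foggy allele, strain or age beyond these stages, do not say what the control RNA was or which part of Foggy was removed, and give neither the number of embryos nor the clutch behind a sample. A p-value here therefore reflects how much these samples vary, which may be technical.

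RNA polymerase II often stops soon after it leaves a promoter. DSIF, a pair of Supt5h and Supt4h, helps NELF to hold it there, and stays with the polymerase as an elongation factor once the kinase P-TEFb has phosphorylated both. Most of this was worked out with human proteins. In zebrafish, foggy is known for mutants that lack some dopamine neurons of the brain.

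The 36 h arrays formed 2 sets that follow the numbers in their titles. Correlations over all probe sets were 0.984 to 0.992 within numbers 1 to 3, 0.957 to 0.992 within numbers 4 to 6, and 0.831 to 0.872 between the sets. Summed intensities of 8 neuron markers were 9774 to 10310 units in numbers 1 to 3 and 983.5 to 2485 units in numbers 4 to 6. Those of 6 yolk and liver markers were 150.6 to 177.3 units in numbers 1 to 3 and 27860 to 34350 units in numbers 4 to 6, so numbers 4 to 6 held abundant transcripts from outside the brain. Numbers 1 to 3 were not free of such transcripts. Their sums of 3 epidermis markers were 13660 to 15640 units, against 18710 to 23610 units in numbers 4 to 6. Adrenal medulla, which the source field adds to brain, was not seen in its defining markers, since th and dbh lay within the range of the tag control probe sets in every group. Those 17 unused tag controls, a measure of background, reached 34.4 units at most. For the GAPDH control, the 3′ signal over the 5′ signal, which rises as RNA degrades, lay between 0.422 and 0.952 on the log2 scale. For these reasons foggy was compared with wild type in numbers 4 to 6 (3 against 3), in numbers 1 to 3 (3 against 1) and over all 36 h arrays (6 against 4).

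The foggy gene itself was low in only one of the 2 sets of arrays labelled foggy. The supt5h probe set measured 40.1, 47.0 and 38.6 units in foggy arrays 4, 5 and 6, against 197, 231 and 167 units in wild-type arrays 4, 5 and 6. All 3 foggy values were below all 3 wild-type values and above the highest tag control of those foggy arrays, 26.9 units. The fall was -1.72 ± 0.13 (log2 difference of intensity plus 16 ± SE, limma adjusted p = 6.73e-05), with a ratio of mean intensities of 0.211. Differences of this kind were fitted on quantile-normalized values at 36 h and on values as deposited at 12 somites, while intensities are given as deposited.

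In the other set, foggy arrays 1, 2 and 3 measured 258, 245 and 254 units, against 210 units in wild-type array 1. None of the 3 was low. The difference was 0.26 ± 0.16 (adjusted p = 0.644, 95% interval -0.10 to 0.61), with the single wild-type array assumed to vary like the others. Between the sets, the foggy effect on supt5h was unlike by -1.98 ± 0.20 (numbers 4 to 6 minus numbers 1 to 3, adjusted p = 0.000491), in a test that called 3.28% of all probe sets. The genotype of foggy arrays 1 to 3 thus rests on their labels, and the sources used here do not say where the probes lie relative to the mutation. Their muscle, heart and red blood cell marker sums were below those of wild-type array 1, as given below.

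Over all 36 h arrays, supt5h had a difference of -0.72 ± 0.52 (adjusted p = 0.776), with overlapping groups. This fit had no term for the set, and held 3 foggy arrays of each set but 1 and 3 wild-type arrays. Differences between the sets therefore enter its values, for supt5h and every other gene read over all 36 h arrays without a block. Yolk and liver markers had a median difference of -1.66 in it and of 0.07 in numbers 4 to 6. The replicate number as a block, over numbers 1, 4, 5 and 6, gave -1.22 (limma adjusted p = 0.0404). That block also takes up the difference between the sets, and pairing by number was not shown at 36 h. Without foggy arrays 1 to 3 the difference was -1.81 (adjusted p = 0.00302).

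The supt5h reading did not pass the test after injection of Foggy(DelCter) RNA. At 12 somites supt5h measured 477, 393 and 414 units after Foggy(DelCter) RNA, against 436, 393 and 397 units after control RNA. The groups overlapped, and the difference was 0.06 ± 0.12 (adjusted p = 0.802, 95% interval -0.21 to 0.33). The sources do not say whether the probes read the injected RNA, so this value checks nothing about the injection. Over the 16 arrays supt5h spanned a 12.4-fold range of intensity, against 1.85-fold to 3.44-fold for the other 6 probe sets.

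**Figure D1:**
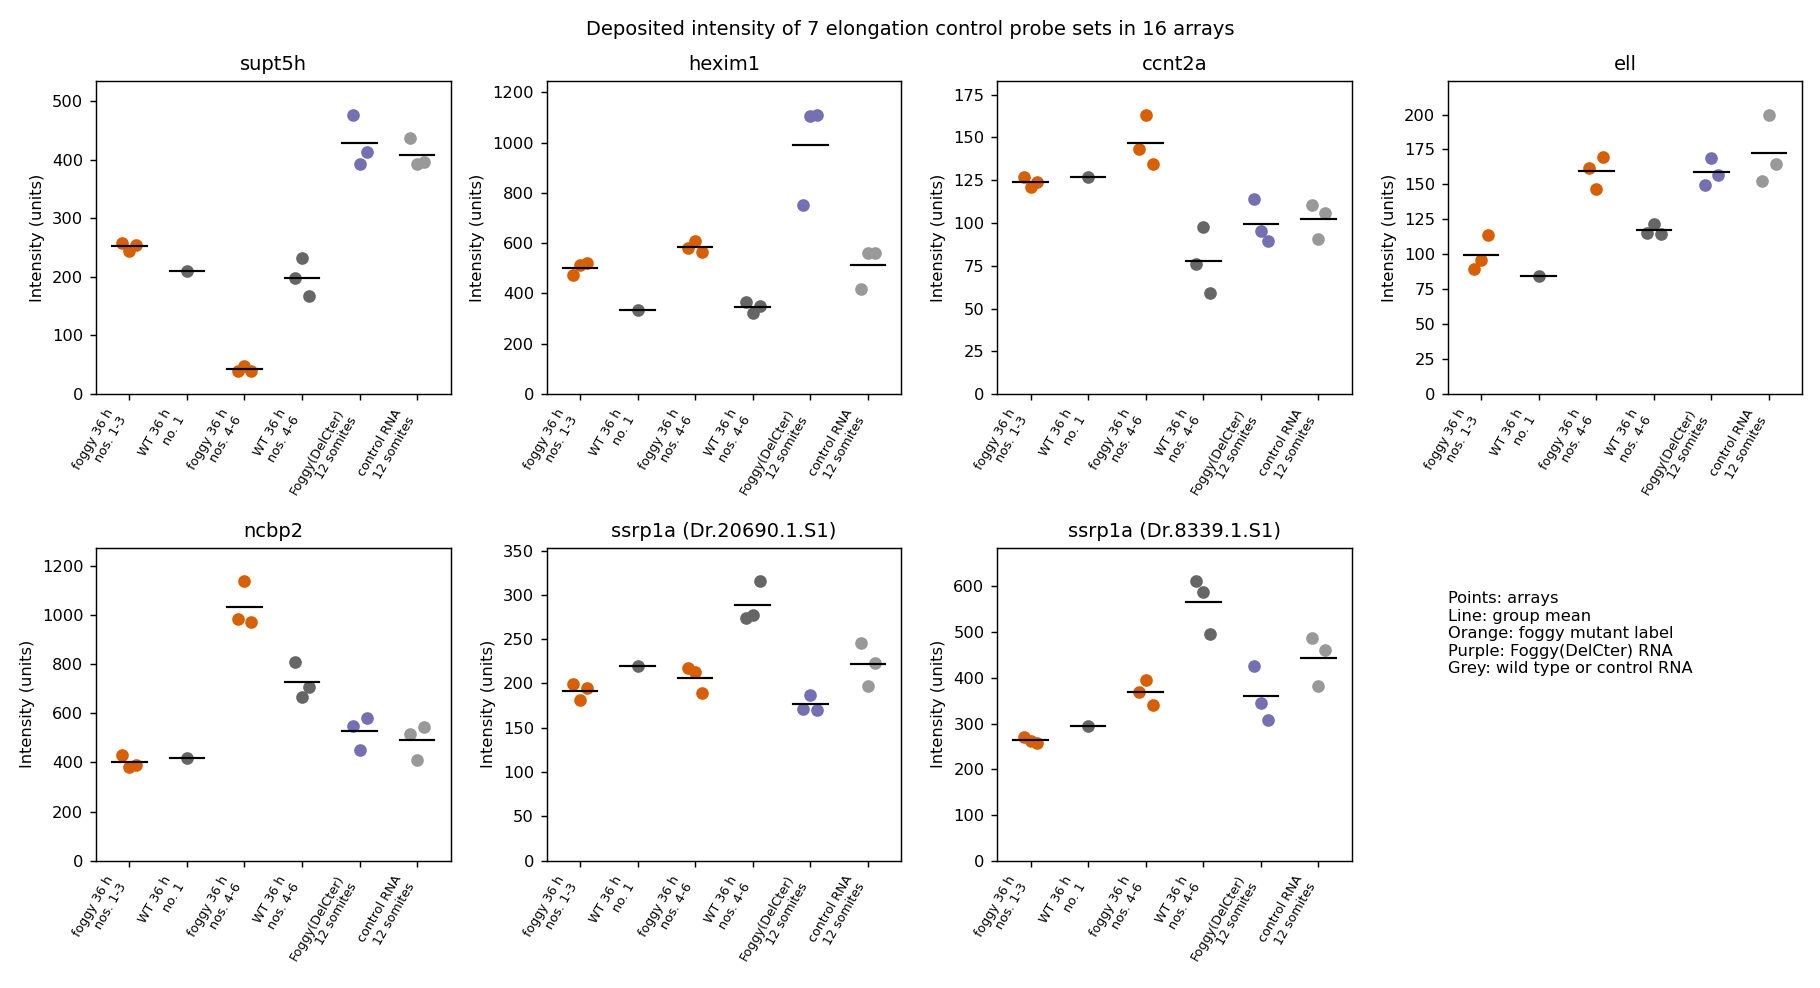
Deposited intensity (vertical axes, linear units from 0) of the 7 probe sets in each of the 16 arrays, with foggy or Foggy(DelCter) arrays left of their wild-type or control arrays; points are arrays and lines group means. Supt5h lies at 38.6 to 47.0 units in foggy arrays 4 to 6 alone, and hexim1 is above its wild-type or control arrays in both foggy groups and after Foggy(DelCter) RNA. Numbers 1 to 3 hold 1 wild-type array.

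Hexim1 had higher values in the foggy arrays of both 36 h sets and after Foggy(DelCter) RNA, and passed the test in numbers 4 to 6 and at 12 somites. Hexim1 protein binds the 7SK RNA and keeps part of the cell's P-TEFb inactive, a role known mainly from human cells. At 36 h the hexim1 probe set measured 579, 608 and 567 units in foggy arrays 4 to 6, against 366, 323 and 352 units in wild-type arrays 4 to 6. It measured 473, 513 and 521 units in foggy arrays 1 to 3, against 333 units in wild-type array 1. Each of the 6 foggy values exceeded each of the 4 wild-type values, a separation upwards that 1.61% of all probe sets had. The arrays on which hexim1 was chosen are among them, so nothing is read from that share.

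In numbers 4 to 6 the rise was 0.68 ± 0.10 (adjusted p = 0.00281), or 1.68-fold in mean intensity. In numbers 1 to 3 the difference was 0.58 ± 0.13, or 1.51-fold (adjusted p = 0.0888), and there 0.728% of all probe sets were called and none of the 7. The test of the difference between the 2 sets gave 0.11 ± 0.16 (adjusted p = 0.757, 95% interval -0.25 to 0.46). For hexim1 each foggy array lay above the wild type of its set, both where supt5h was low and where it was not. Numbers 1 to 3 held 1 wild-type array, and the difference there was not called. The share of all probe sets separated in this way in numbers 1 to 3 was not counted, so nothing is read from that separation.

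Over all 36 h arrays hexim1 was 0.63 ± 0.09 higher (adjusted p = 0.0323) and was the 1 member called, where 0.221% of all probe sets were called and 0.0369% called higher. Of these 10 arrays 6 are those on which the gene was chosen, so nothing is read from that background. This call was lost when any 1 of 9 of the 10 arrays was left out, and held without wild-type array 1, with adjusted p-values of 0.0201 to 0.169. With values as deposited the adjusted p was 0.0695. The sizes without 1 array stayed between 0.59 and 0.66. With the replicate number as a block, for which pairing was not shown at 36 h, the difference was 0.63 (limma adjusted p = 0.00999).

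At 12 somites hexim1 was again higher. It measured 752, 1106 and 1112 units after Foggy(DelCter) RNA, against 417, 562 and 560 units after control RNA. The lowest sample of each group bore the number 1, and the groups did not overlap. Divided within numbers, the ratios were 1.80, 1.97 and 1.99. The rise was 0.92 ± 0.18 (adjusted p = 0.00769, 95% interval 0.53 to 1.3), the 53rd highest of 10851 differences, and hexim1 was the 1 of 7 member probe sets called, where 11.3% of all were called and 3.72% called higher. Groups separated upwards without overlap in 13.3% of all. The call held without each array in turn and under the 8 other settings tried, at adjusted p-values of 0.000416 to 0.0375.

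Of 10100 probe sets tested in both comparisons, 102 (1.01%) rose in foggy arrays 4 to 6 and after Foggy(DelCter) RNA, and hexim1 was the 1 member among them. The 2 comparisons share no array, but hexim1 was chosen from the comparison in numbers 4 to 6, so nothing is read from that share. The rises differed by -0.21 ± 0.23 (36 h minus 12 somites, adjusted p = 0.618, 95% interval -0.69 to 0.27). Of its partners in the 7SK particle, read by the brightest probe set of each gene, none passed in either comparison. The RNA-binding protein gene larp7 measured 172 units in foggy arrays 4 to 6, against 165.7 units in wild-type arrays 4 to 6, and 233.1 units after Foggy(DelCter) RNA, against 192 units after control RNA. The capping enzyme genes mepcea and mepceb had differences of -0.16 and -0.18 in numbers 4 to 6 and of 0.34 and 0.14 at 12 somites. Other probe sets of both genes gave larger differences in numbers 4 to 6. One of mepceb fell by 0.50 ± 0.14 on the log2 scale (adjusted p = 0.0403) and another gave -0.21, while the second of mepcea gave -0.40 (adjusted p = 0.112).

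Markers of several tissues moved as well, and their part in the member results was not tested. In numbers 4 to 6 all 7 skeletal muscle markers fell. Their summed intensities were 3446 to 6094 units in foggy and 18330 to 32580 units in wild-type arrays. Called lower as well were 7 of 8 neuron, 3 of 3 heart and 5 of 5 red blood cell markers. So were 2 of 2 tested lens markers and 2 of 4 radial glia and progenitor markers. All 4 trunk Hox genes rose, as did 1 of 6 yolk and liver and 1 of 3 epidermis markers. Of all probe sets 10.4% fell and 8.96% rose in that comparison. After Foggy(DelCter) RNA 4 of 5 tested yolk and liver markers fell. Their sums were 12580 to 14600 units, against 20550 to 22710 units after control RNA. So did 2 of 4 tested red blood cell, 1 of 2 skeletal muscle, 1 of 4 neuron and 1 of 3 radial glia markers. Of the trunk Hox genes 1 of 4 rose. Of all probe sets 11.3% were called there. The GAPDH 3′ over 5′ log2 ratio was 0.521 to 0.844 in foggy and 0.518 to 0.609 in wild-type arrays 4 to 6, and 0.597 to 0.889 after Foggy(DelCter) RNA against 0.422 to 0.632 after control RNA; its part was not tested either. In RNA from many cells, fewer cells of a type and less RNA per cell cannot be told apart. In numbers 1 to 3, with 1 wild-type array, neuron markers summed to 9934 to 10310 units in foggy arrays and 9774 units in the wild-type array. Muscle markers there summed to 1363 to 1459 units and 4087 units. Heart markers there summed to 179.7 to 217.8 units in foggy arrays and 587.8 units in the wild-type array. Red blood cell markers summed to 1359 to 1499 units and 5851 units.

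**Figure D2:**
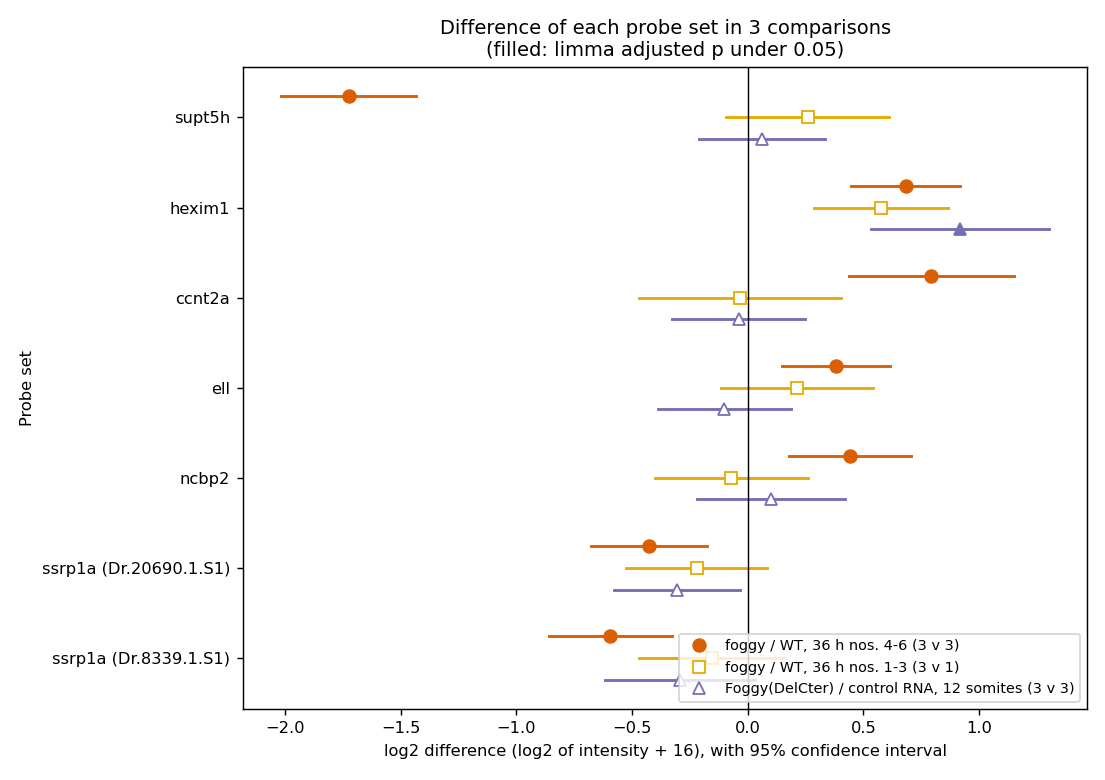
Log2 difference of each of the 7 probe sets in 3 comparisons (horizontal axis, log2 of intensity plus 16), each foggy or Foggy(DelCter) minus its wild type or control, with 95% confidence intervals; filled symbols have a limma adjusted p under 0.05. Hexim1 lies right of 0 with its whole interval in all 3 comparisons, whereas supt5h lies at -1.72 in numbers 4 to 6 only.

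The cyclin of P-TEFb read as ccnt2a was higher in foggy arrays 4 to 6, and was called neither in numbers 1 to 3 nor after Foggy(DelCter) RNA. Cyclin T2 pairs with the kinase Cdk9, and the zebrafish genome holds a second copy, ccnt2b. The ccnt2a probe set measured 143, 163 and 134 units in foggy arrays 4 to 6, against 76.2, 97.8 and 58.9 units in wild-type arrays 4 to 6. The foggy values were all above the wild-type values, which themselves spread widely, with a coefficient of variation of 25.1%. The rise was 0.79 ± 0.16 (adjusted p = 0.00964), or 1.89-fold.

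Foggy arrays 1 to 3 measured 127, 121 and 124 units for ccnt2a, against 127 units in wild-type array 1, a difference of -0.03 ± 0.20 (adjusted p = 0.981). After Foggy(DelCter) RNA it measured 114, 95.3 and 89.5 units, against 111, 90.6 and 106 units after control RNA, with overlapping groups and a difference of -0.04 ± 0.13 (adjusted p = 0.885) that was 0.015 when quantile normalized. The foggy effect at 36 h exceeded the Foggy(DelCter) effect by 0.85 ± 0.22 (adjusted p = 0.0245), in a test that called 10.3% of all probe sets. That call was lost without foggy array 5, control array 1 or 3, or Foggy(DelCter) array 2 or 3, at adjusted p-values up to 0.0652. Between the 2 sets at 36 h the effects differed by 0.83 ± 0.24 (adjusted p = 0.0895, and 0.0396 without wild-type array 5).

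The other 3 P-TEFb genes had positive differences in numbers 4 to 6 that missed the threshold. Of all 10851 probe sets 6282 had positive differences there, so nothing is read from the signs. The kinase gene cdk9 averaged 398.7 units in foggy and 321 units in wild-type arrays, a difference of 0.28 ± 0.11 (adjusted p = 0.108). The cyclin gene ccnt1 differed by 0.43 ± 0.15 (adjusted p = 0.0736). The paralogue ccnt2b differed by 0.37 ± 0.12 (adjusted p = 0.0597). In numbers 1 to 3 cdk9, ccnt1 and ccnt2b had differences of 0.19, 0.24 and 0.39, and none was called. At 12 somites the same genes had differences of 0.20, 0.16 and 0.29 after Foggy(DelCter) RNA, and none was called.

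The elongation factor gene ell also had a rise in numbers 4 to 6, small and near the threshold. Ell raises the rate of the polymerase and joins P-TEFb in the super elongation complex. It measured 162, 147 and 170 units in foggy arrays 4 to 6, against 115, 122 and 115 units in wild-type arrays 4 to 6. The groups did not overlap, and the rise was 0.38 ± 0.10 (adjusted p = 0.0328), or 1.36-fold. Without any 1 of the 6 arrays the call was lost, at adjusted p-values of 0.0594 to 0.0969.

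In foggy arrays 1 to 3 ell measured 89.3, 96.1 and 114 units, against 84.2 units in wild-type array 1. The difference was 0.21 ± 0.15 (adjusted p = 0.687). After Foggy(DelCter) RNA it measured 150, 169 and 157 units, against 153, 200 and 164 units after control RNA. Those groups overlapped, with a difference of -0.10 ± 0.13 (adjusted p = 0.668). The 2 effects differed by 0.48 ± 0.16 (36 h minus 12 somites, adjusted p = 0.0704).

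Ncbp2, the subunit of the nuclear cap-binding complex that contacts the cap of new transcripts, was higher in foggy arrays 4 to 6. It measured 986, 1138 and 973 units in foggy arrays 4 to 6, against 810, 667 and 706 units in wild-type arrays 4 to 6. No foggy value reached down to the wild-type range. The rise was 0.44 ± 0.12 (adjusted p = 0.0302), or 1.42-fold, and was called in 2 of the 6 fits without 1 array (adjusted p-values 0.0444 to 0.104), namely without wild-type array 4 or foggy array 6.

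Elsewhere ncbp2 did not separate the groups. Foggy arrays 1 to 3 measured 432, 381 and 391 units, against 418 units in wild-type array 1, a difference of -0.07 ± 0.15 (adjusted p = 0.94). After Foggy(DelCter) RNA it measured 548, 450 and 582 units, against 515, 412 and 544 units after control RNA, where number 2 was lowest in both groups. Within numbers the ratios were 1.06, 1.09 and 1.07, and the difference was 0.10 ± 0.15 (adjusted p = 0.715, and 0.568 with the replicate number as a block). The ncbp2 level also differed between the sets. Foggy arrays 1 to 3 were 1.22 ± 0.11 lower than foggy arrays 4 to 6 on the log2 scale (adjusted p = 1.06e-06), in a contrast that called 70.6% of all probe sets, 33.6% higher and 36.9% lower.

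Ssrp1a was the member besides supt5h that was lower in foggy arrays 4 to 6. Its protein is a subunit of FACT, which opens and rebuilds nucleosomes in front of the polymerase and also at replication forks. The brighter of its probe sets measured 368, 396 and 341 units in foggy arrays 4 to 6, against 611, 589 and 495 units in wild-type arrays 4 to 6. The fall was -0.59 ± 0.12 (adjusted p = 0.00948), with a ratio of means of 0.652.

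The dimmer probe set measured 217, 213 and 189 units in foggy arrays 4 to 6, against 274, 277 and 315 units in wild-type arrays 4 to 6. Its fall was -0.43 ± 0.11 (adjusted p = 0.0279) and was lost without any 1 of the 6 arrays, at adjusted p-values of 0.0564 to 0.0744. Neither probe set had overlapping groups. Both thus moved the same way, although their intensity ratio was not constant, at 1.32 to 1.44 in numbers 1 to 3 and 1.57 to 2.49 in the other arrays.

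At 12 somites both ssrp1a probe sets had lower values in every same-numbered pair, but neither difference was called. The brighter probe set measured 426, 345 and 309 units after Foggy(DelCter) RNA, against 488, 381 and 461 units after control RNA, a difference of -0.29 ± 0.15 (adjusted p = 0.242). The dimmer one measured 171, 187 and 170 units after Foggy(DelCter) RNA, against 246, 197 and 224 units after control RNA, a difference of -0.31 ± 0.13 (adjusted p = 0.147). Within numbers 1, 2 and 3 the ratios were 0.873, 0.905 and 0.670 for the brighter probe set and 0.696, 0.950 and 0.762 for the dimmer one. The groups overlapped for the first probe set and not for the second, a downward separation found in 17.6% of all probe sets. In numbers 1 to 3 the differences were -0.15 ± 0.14 and -0.22 ± 0.14, also uncalled. All 3 foggy values lay below the single wild-type array 1 for both probe sets. The share of all probe sets separated in this way was not counted, so nothing is read from it. Over all 36 h arrays the dimmer probe set lay lower in each of the 6 foggy arrays than in each of the 4 wild-type arrays, as 1.62% of all probe sets did. These include the arrays on which ssrp1a was chosen, so nothing is read from that share. The difference was -0.42 ± 0.12 (limma adjusted p = 0.252, and 0.0214 with the 2 sets as a block).

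Markers of dividing cells moved beside ssrp1a. The 10 such genes included the replication helicase subunits mcm2 to mcm7 and the sliding clamp pcna. In foggy arrays 4 to 6, where 10.4% of all probe sets fell, 8 of these genes fell and 0 rose. Their median was -0.99. Their sums were 8347 to 9020 units in foggy and 14120 to 15480 units in wild-type arrays. After Foggy(DelCter) RNA none of the 10 was called, with a median of -0.09 and sums of 12710 to 14190 units against 14010 to 14720 units after control RNA. Their part in the ssrp1a result was not tested.

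**Figure D3:**
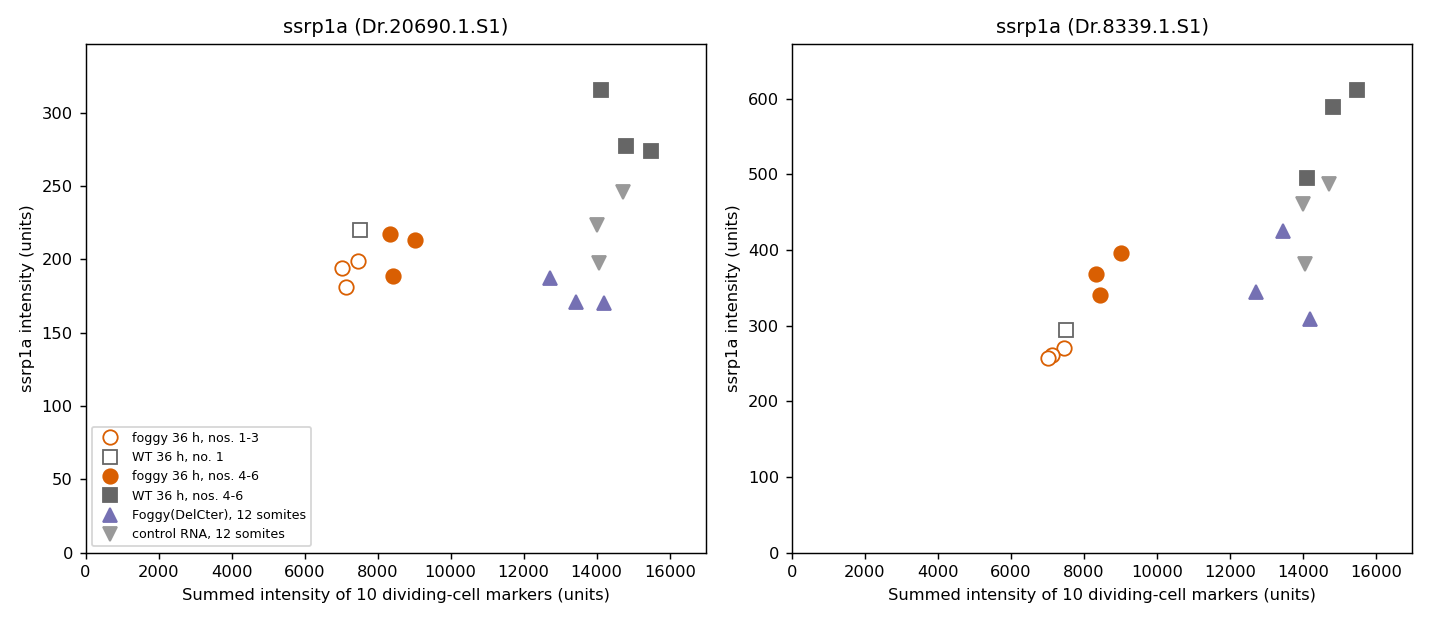
Deposited intensity of the 2 ssrp1a probe sets (vertical axes, linear units from 0) against the summed intensity of 10 dividing-cell markers (horizontal axes, linear units from 0), 1 point per array, symbols by group. Foggy arrays 4 to 6 lie left of and below wild-type arrays 4 to 6, and Foggy(DelCter) arrays lie near the marker sums of the control arrays with lower or overlapping ssrp1a.

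Counted together, the 7 probe sets gave 4 rises and 3 falls in numbers 4 to 6, against a background of 19.3% called, of which 8.96% of all lay higher and 10.4% lower. All 7 had groups that did not overlap, against 39.6% of all. Because the genes were picked from this comparison, nothing is read from these counts. Over all 36 h arrays the replicate block called 4 of the 7, where it called 9.33% of all probe sets, adding supt5h, ccnt2a at 0.60 (adjusted p = 0.0465) and the brighter ssrp1a probe set at -0.48 (adjusted p = 0.0431) to hexim1. With the 2 sets as a block 6 were called, ncbp2 being the exception, where 13.2% of all were called. These fits include the arrays on which the genes were chosen, and nothing is read from the counts.

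Foggy arrays 1 to 3 differed from foggy arrays 4 to 6 in 5 of the 7 probe sets, a share like the 70.6% of all probe sets called in this contrast. Supt5h was higher by 2.03 ± 0.11 (adjusted p = 2.4e-08), 6.02-fold in mean intensity. Ell was lower (-0.77 ± 0.11), as were the brighter ssrp1a probe set (-0.43 ± 0.10) and ccnt2a (-0.35 ± 0.14, adjusted p = 0.0422, and 0.186 with values as deposited). Hexim1 (-0.12 ± 0.09) and the other ssrp1a probe set were not called. The median of all tested probe sets in this contrast was -0.04 after quantile normalization and 0.14 with values as deposited. Relative to it, supt5h stood at 2.07 and 2.08 on the 2 scales, ncbp2 at -1.18 and -1.46, ell at -0.73 and -0.74, and hexim1 at -0.08 and -0.35.

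The order of the group levels differed from gene to gene. Supt5h was highest in the 12-somite groups, at 428 ± 43.6 units after Foggy(DelCter) RNA and 409 ± 23.9 units after control RNA (SD, n = 3 each), which overlapped. Next came foggy arrays 1 to 3 at 252 ± 6.91 units, then wild-type array 1 and wild-type arrays 4 to 6, which overlapped. Foggy arrays 4 to 6 were last at 41.9 ± 4.51 units. These levels come from different stages and array sets, and possibly from different materials. The 36 h and 12-somite levels were not tested against each other.

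Hexim1 was highest after Foggy(DelCter) RNA at 990 ± 206 units, then in foggy arrays 4 to 6 at 585 ± 21.3 units. Control RNA embryos at 513 ± 83.1 units overlapped with foggy arrays 1 to 3 at 502 ± 25.9 units, and both wild-type groups came last and overlapped each other. Ncbp2 ran from 1032 ± 91.6 units in foggy arrays 4 to 6 and 727 ± 73.7 units in wild-type arrays 4 to 6 down to 402 ± 27.0 units in foggy arrays 1 to 3, with the last 4 groups overlapping their neighbours. Ell was highest and overlapping in control RNA embryos, foggy arrays 4 to 6 and Foggy(DelCter) embryos (159 to 172 units) and lower in wild-type arrays 4 to 6 at 117 ± 3.96 units. Ccnt2a was highest in foggy arrays 4 to 6 at 147 ± 14.9 units and lowest in wild-type arrays 4 to 6 at 77.6 ± 19.5 units, which overlapped with Foggy(DelCter) embryos. Both ssrp1a probe sets were highest in wild-type arrays 4 to 6, at 565 ± 61.5 and 289 ± 23.0 units, above control RNA embryos without overlap.

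Beyond the members, a list of 67 symbols of elongation factors, chosen with earlier results known, was read for 36 further genes on the array, 34 of them above the filter on low values. Each gene was read by its brightest probe set. On that reading, in numbers 4 to 6, 3 of the 34 rose and 0 fell, beside 8.96% and 10.4% of all. All 3 encode subunits of elongin, which keeps the polymerase moving and also serves in ubiquitin ligases. These were eloa (0.41 ± 0.12, adjusted p = 0.0352), elocb (0.38 ± 0.11, adjusted p = 0.0421) and eloca (0.39 ± 0.12, adjusted p = 0.0478), and the fourth elongin gene, elob, measured 0.07 by its brightest probe set and 0.38 by its other one (adjusted p = 0.0652). Over all 44 tested probe sets of these genes 3 rose and 1 fell, the fall being that of mepceb. The median of the 34 was 0.09, against 0.06 over all probe sets. The share that rose was close to the background. Without the filter on low values or with a pseudocount of 1 none of the 3 was called, and without 1 array only eloa was, in 1 of 6 fits (without wild-type array 5), the adjusted p-values of the 3 then ranging from 0.05 to 0.132.

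Several complexes held no call in numbers 4 to 6 in any probe set. The 4 NELF genes ranged from -0.02 to 0.33, the upper end being nelfb (adjusted p = 0.0727). The 6 genes of the PAF complex, which travels with the polymerase and recruits histone modifiers, ranged from -0.43 for leo1 (adjusted p = 0.0917) to 0.24 for paf1 by the brightest probe sets, while the second leo1 probe set gave 0.22 (adjusted p = 0.202), opposite in sign. The histone chaperone gene supt6h measured 0.02. Outside these complexes, ncbp3, another cap-binding protein gene, measured -0.03, beside the called rise of ncbp2.

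After Foggy(DelCter) RNA none of the 34 was called by limma in its brightest probe set, with 3 at an unadjusted p under 0.05 (25.9% of all probe sets), namely ccnt2b, mepcea and mllt3. Over all 45 tested probe sets of these genes 1 was called, a dimmer one of the kinase gene cdk13 at -0.53 ± 0.13 (adjusted p = 0.0208), whose other probe sets gave -0.20 and 0.00014. Of the 34 differences 27 were positive, against 5107 of 10851 over all probe sets, and their median was 0.15, against -0.02. These 34 are the brightest probe sets of a list chosen with earlier results known, set against probe sets of every brightness. Array medians were 46.24 to 47.13 units after Foggy(DelCter) RNA and 49.22 to 50.95 units after control RNA. The part of brightness was not tested, so nothing is read from these signs and medians. In numbers 1 to 3 likewise 0 were called, with 2 at an unadjusted p under 0.05 (10.3% of all), and the median was 0.15, against 0.02 over all. No call was made over all 36 h arrays either, where 3 had an unadjusted p under 0.05 (9.24% of all).

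Between foggy arrays 1 to 3 and foggy arrays 4 to 6 most of the array differed. Of the 34 genes 7 were higher and 14 lower in numbers 1 to 3, beside 33.6% and 36.9% of all probe sets. Tcea2, a TFIIS gene whose product rescues stalled polymerase, averaged 94.7 units in foggy arrays 1 to 3 and 20.6 units in foggy arrays 4 to 6, a value within the range of the tag controls there, so no size is given. Leo1 was higher by 1.33 ± 0.15 in its brightest probe set. Ell2, a paralogue of ell, averaged 73.7 units in foggy arrays 1 to 3 and 263.9 units in foggy arrays 4 to 6, a difference of -1.82 ± 0.15. The next rises by p were larp7 (0.52), tcea1 (0.45), cdk9 (0.38) and elob (0.40), and the next falls were skic8 (-0.92), eaf2 (-0.83), eloca (-0.65), nelfb (-0.58) and eloa (-0.52).

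**Figure D4:**
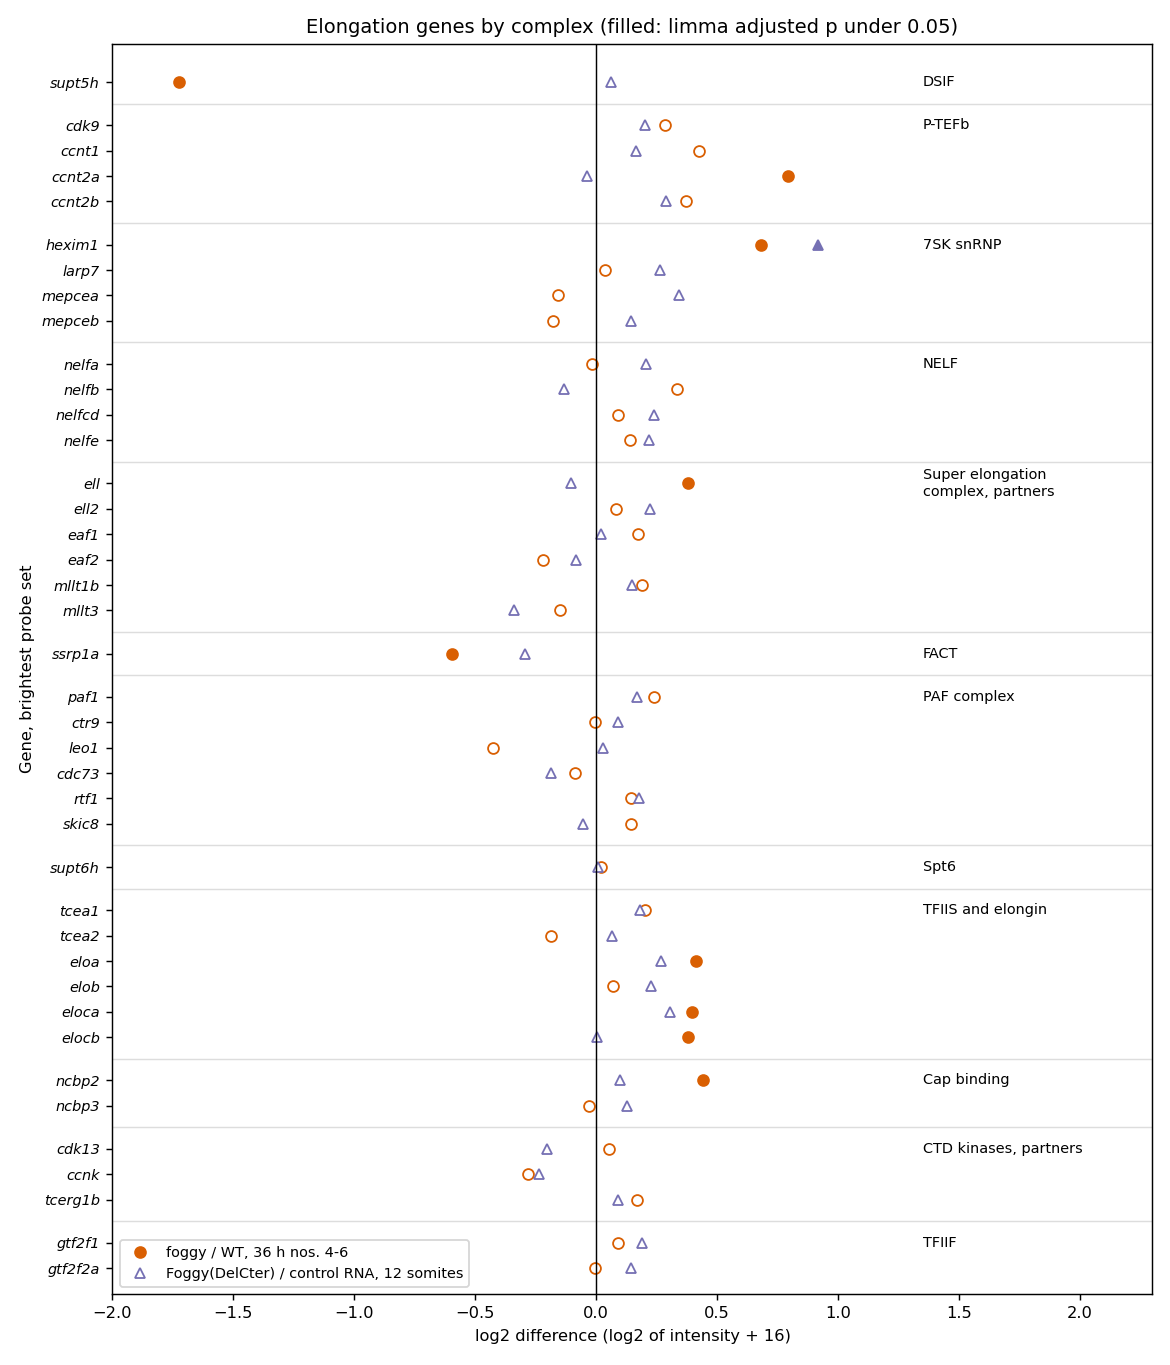
Log2 difference (horizontal axis, log2 of intensity plus 16) of the 40 tested elongation genes by complex, each by its brightest probe set, foggy minus wild type in 36 h numbers 4 to 6 (circles) and Foggy(DelCter) minus control RNA at 12 somites (triangles); filled symbols have a limma adjusted p under 0.05. Supt5h at -1.72 lies far left at 36 h, and hexim1 is the 1 gene with both symbols filled.

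The probe sets whose values most resembled each member over the 16 arrays were found by Pearson correlation of log2 intensity plus 16 among 8334 with 1 symbol. The stage and set differences above, and any in material, run through all arrays, so these are descriptions. For supt5h they were cirbpb, a cold-inducible RNA-binding protein gene (0.98), and sox9b, a transcription factor gene of neural crest, cartilage and glia (0.979). For hexim1 they were the claudin gene cldn12 (0.902) and the ferritin family gene fthl27 (0.901). For ccnt2a they were ofd1 (0.908) and the poly(A) polymerase gene papola (0.837). For ell they were si:dkey-87o1.2 (0.943) and itpkcb (0.937), an inositol phosphate kinase gene. For ncbp2 they were the mitochondrial genes cox6a1 (0.967) and atp5pb (0.96). For the brighter ssrp1a probe set they were si:ch1073-143l10.2 (0.948) and the ribonucleotide reductase gene rrm2l (0.932).

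Among themselves the members did not run in parallel over the 16 arrays. The 2 ssrp1a probe sets correlated at 0.73. Between genes the coefficients ranged from -0.779 for supt5h with ncbp2 to 0.572 for hexim1 with ell, and hexim1 with supt5h gave 0.177.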

How the data were processed

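Intensities on a linear scale, 1 per probe set and array, were deposited by the authors; their values show a 2% trimmed mean of 150.03 to 150.04 units in every array, so they had been scaled to it. The software, the summary method and the probe positions are nowhere given in the sources used here. Array medians were 46.24 to 66.03 units. The number of arrays limits the precision. Of 15617 probe sets 115 controls were left out. Of the other 15502, 10795 had 1 symbol, 135 several and 4572 none, and 1 symbol was brought up to date from RefSeq (GRCz12tu), from which no coordinates were taken. All 16 columns matched a sample and no 2 arrays were identical.

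Values were taken as log2(value + 16), which understates changes of dim genes. The 10 arrays at 36 h were quantile normalized together, and the 12-somite arrays were used as deposited. For the contrast between stages, 12 arrays were quantile normalized together. Probe sets with a mean below the 30th percentile were left out, which leaves 10851, all 7 members among them. All of them were fitted with limma 3.58.1 (lmFit, eBayes; R 4.3.3), 2-sided, with Benjamini-Hochberg adjustment and calls at an adjusted p under 0.05. Numbers 4 to 6 and the 12-somite arrays were fitted alone, numbers 1 to 3 and the differences between sets in 1 fit of 4 cells. The steps were tested on simulated data. Of changes of 0.5 on the log2 scale, 25 of 98 were recovered in numbers 4 to 6 and 18 of 95 at 12 somites. Of changes of 1, 76 of 96 and 78 of 91 were recovered. In that simulation differences of 0.5 were thus mostly missed. Few probe sets were changed in it, whereas 19.3% of all were called in numbers 4 to 6. The adjustment is stricter where few change, so these shares may not hold for the data.

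The members, the elongation list and the marker lists were chosen with earlier results of these data known. Named genes were the members, each called gene of the elongation list, and the 2 probe sets most like each member; other list genes were named for their complex after their values were seen. Groups share replicate numbers. Deviations from group means of same-numbered arrays correlated at 0.237, 0.230 and 0.181 at 12 somites. Each was above the 0.1 required of each number, so the numbers were taken to pair those samples. The main fit at 12 somites was nevertheless unpaired, with the replicate block as an alternative that changed no member's call. Over all 36 h arrays they correlated at 0.903, 0.838, 0.848 and 0.691 (numbers 1, 4, 5 and 6). Those deviations hold the difference between the 2 sets, so they cannot show pairing by number. Within numbers 4 to 6 they correlated at 0.0612, 0.278 and 0.355 (numbers 4, 5 and 6). Number 4 was under the 0.1 required of each number, so pairing of those samples was not shown, nor was its absence. Alternatives were the normalization, the filter, 1 or 64 as pseudocount, a robust prior with a trend on intensity, other samples in the fit, blocks, and each array left out. Leaving out foggy arrays 1 to 3 was added after seeing the data.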

Additional observations from a re-analysis of the deposited data

Results flagged for a closer look

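Of the 7 probe sets, supt5h had foggy effects that differed between the 2 sets of 36 h arrays by -1.98 ± 0.20 (numbers 4 to 6 minus numbers 1 to 3, limma adjusted p = 0.000491). The same gene had a foggy effect in numbers 4 to 6 that differed from the Foggy(DelCter) effect at 12 somites by -1.93 ± 0.19 (adjusted p = 1.71e-05). Ccnt2a had a foggy effect in numbers 4 to 6 that exceeded the Foggy(DelCter) effect by 0.85 ± 0.22 (adjusted p = 0.0245). The genes had been chosen for differing in numbers 4 to 6, an arm of each of these contrasts, so the contrasts lean towards a call and describe that choice, and the first rests on a single wild-type array numbered 1. Stage, kind of change and possibly material differ together between the 36 h and 12-somite comparisons and cannot be told apart. No array stood apart from its group in the 14 groups of 4 or 6 arrays tested with Dixon's criterion, in which the 36 h sets were joined. Joining 2 sets that differ can hide a stray array, and the 12-somite groups of 3 arrays were not tested. Nothing is therefore read from this result.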

How the results depend on the processing

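In numbers 4 to 6, supt5h, hexim1, ccnt2a and the brighter ssrp1a probe set were called under all 9 other settings and without each array. The genes were chosen on these same arrays, so the repeated calls describe the processing and add nothing about the genes. The count of called members went from 7 to 4 without the filter, where more probe sets are tested, and to 4 to 5 without 1 array; that of list genes went from 9 to 4 without the filter and to 4 to 6 without 1 array. All calls there ranged from 1180 to 2844, against 2099. Pairing by number was not shown for those samples. With the replicate block 7 members and 2728 probe sets were called. In numbers 1 to 3 the count went from 0 to 1, hexim1, with the filter at the 60th percentile, pseudocount 64 or the intensity trend (adjusted p-values 0.0493, 0.0235 and 0.035). Over all 36 h arrays it went from 1 to 0 with values as deposited, 4 with the replicate block, 6 with the set as a block, 2 without foggy arrays 1 to 3, and 0 to 2 without 1 array; all calls ranged from 1 to 1428. Ell there ranged from -0.0047 to 0.25 and ncbp2 from -0.17 to 0.15 without 1 array. The replicate block changed no member's call at 12 somites. Without 1 array there, ccnt2a ranged from -0.125 to 0.024, ell from -0.18 to 0.00049, ncbp2 from -0.0167 to 0.21 and supt5h from -0.0165 to 0.12; quantile normalized, ccnt2a was 0.015. The difference between sets called 1 to 2 members without 1 array, and the difference between stages 1 to 2 (2 in full), or 3 with ell at the 60th percentile (adjusted p = 0.0389) or pseudocount 64 (adjusted p = 0.0484). The cause of these changes was not tested. Signal over background limits foggy arrays 4 to 6 for supt5h, at 41.9 units against 26.9 for the highest tag control.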
